A study of Rattus norvegicus with 68 samples.

Results

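The transcriptome of the rat nasal lining after 13 weeks of inhaled formaldehyde was compared between the 2 concentrations that adjoin each other near the top of the dose range, 10 ppm and 6 ppm. The comparison used every gene measured by a probe set that names 1 gene symbol, 14217 genes in all, in the 8 arrays of the groups concerned, out of 68 arrays in the series. The 10 ppm group and the 6 ppm group each held 4 male F344/CrlBR rats, 8 weeks old at the start, that breathed formaldehyde in whole-body chambers for 6 hours per day on 5 days per week. The animals numbered 341, 346, 348 and 349 received 10 ppm, and those numbered 316, 317, 319 and 320 received 6 ppm. Neither group is unexposed, so the comparison does not measure formaldehyde against clean air. Each array (Affymetrix Rat230_2) carried the RNA of cells that proteases had freed from the level II section of 1 animal's nose, from which, per the labels, the olfactory lining and the maxilloturbinate had been removed. The whole series crosses 6 concentrations (0 ppm, 0.7 ppm, 2 ppm, 6 ppm, 10 ppm and 15 ppm) with times of 5 days, 4 weeks and 13 weeks in 17 groups of 4 animals, and its other arrays serve here to estimate each gene's spread and to set the same step at other times beside it.

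Formaldehyde is a water-soluble, reactive aldehyde that is absorbed mostly in the front of the rat nose, where it crosslinks protein and DNA. High concentrations injure the respiratory epithelium, a lining of ciliated, secretory and basal cells. The injured lining regenerates by division of basal cells and can be replaced by squamous epithelium, a layered and keratin-rich tissue like epidermis, and long exposure of rats to high concentrations gives nasal squamous cell carcinoma.

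Values are log2 signals, on which a difference of 1 is a doubling in signal. Changes are given as 10 ppm minus 6 ppm with the standard error (SE) of the limma fit, n = 4 animals per group, and p-values carry the Benjamini-Hochberg adjustment over the 14217 genes. Genes below 0.05 count as called, and only those are said to have risen or fallen. Each gene's spread, and with it the SE, was estimated from the animals of all 17 groups. No source used here says that animals came from separate chambers or litters. The p-values measure the spread between animals within the 17 groups. If the animals of a concentration shared a chamber, chamber and concentration cannot be told apart. A group mean under 6 was treated as low signal, and no fold is given against such a mean. In whole-tissue RNA, fewer cells of a type and less RNA per cell cannot be told apart.

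The sequences before the start are shown for a few genes that rose together or by the largest amount. Of these genes, Cks2, Ccnb1 and Mcm5 were chosen after their values were seen. The sequences are each referred to again beside the values of their gene. They come from RefSeq on the GRCr8 build, run 5′ to 3′ on the gene's own strand and end just before the start of the gene's annotated transcripts; the arrays themselves measured no DNA. Capitals mark letters searched on both strands: TGANTCA (the AP-1 site) for Sprr1b at chr2:180706356-180706605 (minus strand), TTTGAA (the cell cycle homology region, CHR) and CCAAT (the CCAAT box) for the mitotic genes, and TTTNNCGC (an E2F site) for Mcm5 at chr19:13488563-13488812 (plus strand). The mitotic genes are Cdk1 at chr20:19265043-19265251 (plus strand), Cks2 at chr17:13727520-13727769 (minus strand), Plk1 at chr1:186147408-186147657 (plus strand) and Ccnb1 at chr2:33655226-33655475 (minus strand). In Mcm5 a pair of the marked E2F matches overlap each other, and no CHR match printed overlaps a CCAAT match. A match describes these letters and is no evidence of binding; shares of genes with a match, given later, refer to the 250 bases before each start.
Sprr1b: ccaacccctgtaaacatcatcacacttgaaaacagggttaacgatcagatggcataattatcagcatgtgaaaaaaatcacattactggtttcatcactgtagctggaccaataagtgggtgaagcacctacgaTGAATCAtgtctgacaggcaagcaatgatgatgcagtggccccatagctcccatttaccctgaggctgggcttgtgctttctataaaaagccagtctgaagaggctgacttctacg
Cdk1: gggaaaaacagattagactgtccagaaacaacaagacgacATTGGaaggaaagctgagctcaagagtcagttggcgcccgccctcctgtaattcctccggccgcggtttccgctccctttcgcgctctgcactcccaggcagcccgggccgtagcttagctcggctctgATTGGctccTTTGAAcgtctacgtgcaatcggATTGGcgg
Cks2: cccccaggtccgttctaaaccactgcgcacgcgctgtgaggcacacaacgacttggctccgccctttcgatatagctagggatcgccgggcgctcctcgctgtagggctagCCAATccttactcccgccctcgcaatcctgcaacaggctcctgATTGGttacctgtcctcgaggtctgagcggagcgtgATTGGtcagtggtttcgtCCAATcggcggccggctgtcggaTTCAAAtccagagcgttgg
Plk1: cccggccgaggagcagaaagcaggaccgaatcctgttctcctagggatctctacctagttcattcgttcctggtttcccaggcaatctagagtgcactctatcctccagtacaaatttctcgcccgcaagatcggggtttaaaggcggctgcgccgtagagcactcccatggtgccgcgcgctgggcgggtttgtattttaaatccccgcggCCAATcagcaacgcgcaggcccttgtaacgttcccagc
Ccnb1: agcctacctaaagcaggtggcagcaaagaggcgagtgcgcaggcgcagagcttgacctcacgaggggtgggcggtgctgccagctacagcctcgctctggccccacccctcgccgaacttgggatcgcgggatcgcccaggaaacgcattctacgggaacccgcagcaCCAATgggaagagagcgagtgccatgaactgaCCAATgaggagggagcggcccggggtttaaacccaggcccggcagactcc
Mcm5: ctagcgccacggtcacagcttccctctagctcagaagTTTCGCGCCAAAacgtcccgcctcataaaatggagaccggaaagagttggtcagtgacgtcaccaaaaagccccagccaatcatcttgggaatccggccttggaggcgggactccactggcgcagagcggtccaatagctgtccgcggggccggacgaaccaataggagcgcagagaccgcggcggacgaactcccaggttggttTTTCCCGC

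Epithelial markers were strong in both groups. Epcam, a surface protein of epithelia, was 12.75 to 12.86 in the 10 ppm animals and 12.71 to 12.86 in the 6 ppm animals. The summed log2 level of the 8 epithelial markers was 15.77 to 15.83 at 10 ppm and 15.43 to 15.70 at 6 ppm, without overlap. This sum is weighted to the brightest genes, such as Krt14, a gene called in this step. Krt14, Krt8 and, barely, Krt5 were higher at 10 ppm without overlap. Epcam, Cdh1, Krt19, Krt18 (12.13 to 12.45 against 12.20 to 12.54) and Tp63 (10.28 to 10.61 against 10.44 to 10.62) overlapped. The sum is thus no measure of the amount of epithelium. Olfactory neuron markers were not absent, although that lining was to be removed. Omp, the olfactory marker protein, spanned 10.14 to 12.65 at 10 ppm and 10.94 to 13.19 at 6 ppm, and the mean signal of the olfactory list was high in animals 346 and 348 of the first group and in 319 and 320 of the second. Fibroblast markers were also present: all 4 (Col1a1, Col1a2, Col3a1 and Dcn) were measured, and their summed level on the log2 scale was 12.97 to 14.32 at 10 ppm and 14.09 to 14.91 at 6 ppm. RNA integrity numbers were 8.4, 8.4, 8.4 and 8.6 at 10 ppm and 8.6, 8.5, 8.3 and 8.3 at 6 ppm. The 3′ minus 5′ difference of the beta-actin control probe sets, which grows as RNA is degraded or copied short, was 1.67 to 1.82 in the 10 ppm arrays and 1.46, 1.62, 2.27 and 2.20 in the 6 ppm arrays, where the last 2 values are those of animals 319 and 320. Arrays correlated at 0.985 to 0.994 within 10 ppm, 0.980 to 0.995 within 6 ppm and 0.971 to 0.995 between them.

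Calls went in both directions, with 299 rises and 272 falls at 10 ppm. These 571 calls are 4.02% of the 14217 genes, 2.1% higher and 1.91% lower. Sizes were modest: 53 of the genes that rose and 30 of those that fell changed by at least 1.5-fold, 10 and 1 of them by at least 2-fold, and the median size was 0.40 for rises and 0.36 for falls. All 4 arrays of 10 ppm lay beyond all 4 of 6 ppm for 266 of the 299 genes that rose and 210 of the 272 that fell, against 1885 (13.3%) of all genes, 6.99% on the higher side and 6.27% on the lower. The calls were made from these same arrays, so this separation is in part built in and is no added support. The genes that rose were led by the cornified envelope gene Sprr1b and the cell cycle inhibitor gene Cdkn2a and held much of the mitotic machinery; those that fell were led by Gad1 and held several clock genes, and none of the 39 gene lists examined had more than 3 members that fell.

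The count depended on single animals and on the spread borrowed from other groups. It was 40 without animal 349, 100 without 346, 158 without 320 and 174 without 319. It was 521 to 792 when any of the other 4 was left out, and 19 without 319 and 320 together. With the beta-actin 3′ minus 5′ difference as a covariate 548 genes were called, and with the RNA integrity number 628. A fit to the 8 arrays alone called 0 genes, with 3162 genes at an unadjusted p under 0.05, against 3193 genes (22.5%) in the fit to all arrays. Of the 571 genes, 32 were called whichever of the 8 arrays was left out, 26 of them higher and 6 lower at 10 ppm, and 18 of these are among the genes named below: Sprr1b, Cdkn2a, Fst, C9h6orf141, Sapcd2, Fosl1, Gip, Plk1, Birc5, Troap, Cdk1, Ccne1, Ccng1, Nop58, Hspd1, Gapdh, Setsip and Oprpn. The share of calls that were higher was 52.4% as deposited, 88.7% after each array was centred on its median and 71.4% after cyclic loess. The array medians over genes were 8.13 to 8.22 at 10 ppm and 8.24 to 8.29 at 6 ppm. Their means differed by -0.074 (10 minus 6 ppm), and centring took that difference out of every change, which shifted all changes upward. The median change over all genes was -0.01 as deposited. Under centring 299 of the genes that rose and 124 of those that fell were still called, and 0 called genes changed sign under either scaling.

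**Figure D1:**
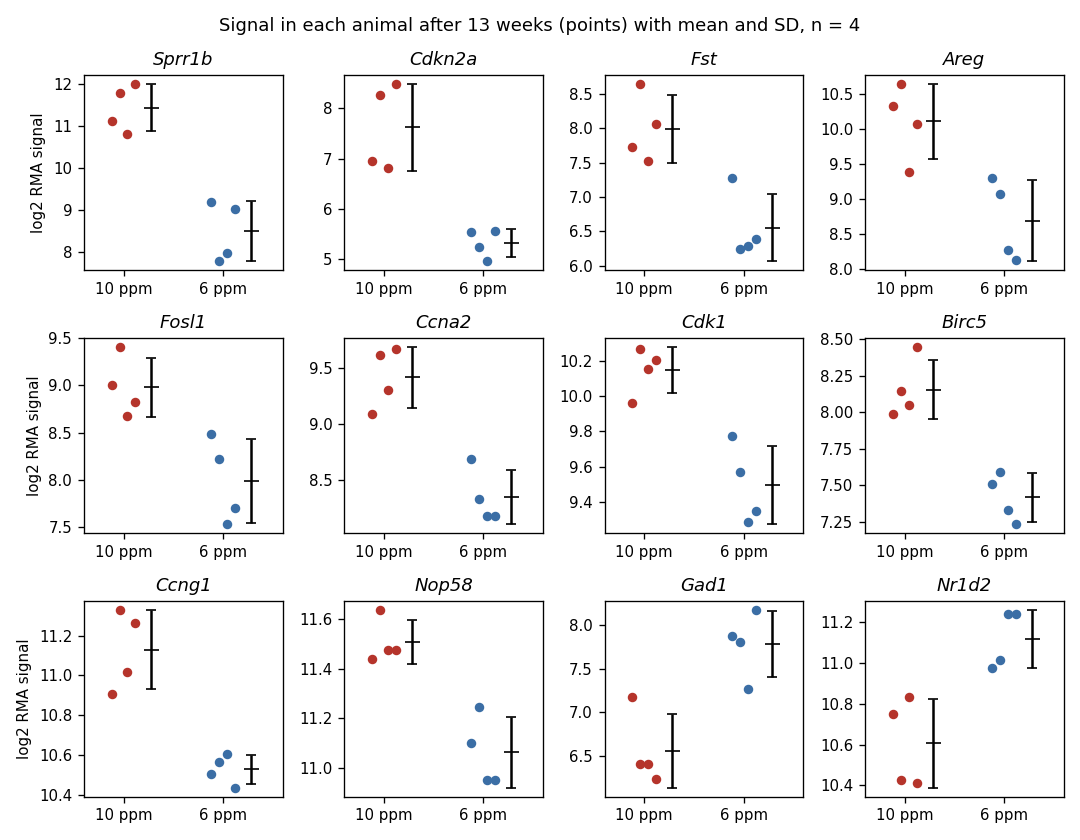
Log2 RMA signal (vertical axes) of 12 genes in each animal after 13 weeks, with 10 ppm on the left and 6 ppm on the right of each panel; points are animals and the bar beside them is the mean ± SD of 4. In these 12 genes the groups do not overlap, and Sprr1b shows the widest separation, 11.43 against 8.50 on average.

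Sprr1b, which encodes a small proline-rich protein that is crosslinked into the cornified envelope of squamous cells, had the largest rise. Its signal was 11.12, 11.79, 10.81 and 12.01 at 10 ppm and 9.20, 7.79, 8.00 and 9.02 at 6 ppm. The lowest animal of 10 ppm lay above the highest of 6 ppm, and the change was 2.93 ± 0.40 (7.62-fold, adjusted p = 1.04e-05). By concentration from 0 to 15 ppm its mean signal at 13 weeks was 6.77, 6.75, 6.56, 8.50, 11.43 and 12.97. The AP-1 letters in the sequence shown for it begin 116 bases before the start. An AP-1 match was present before 16 of the 260 genes that rose and have a sequence (6.15%), and before 4.84% of all 11734 genes with one.

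Other genes of squamous differentiation moved less clearly. Of 42 measured members of that list, Sprr1b and Lypd3, which encodes a surface protein of stratified epithelia, rose and 0 fell. The median change was 0.43 against -0.01 over all genes, and 37 changes were above 0. Non-overlapping groups were seen for 10 members, all of them higher at 10 ppm, against 6.99% of all genes. Lypd3 signal was 9.80 to 10.46 at 10 ppm and 9.03 to 9.61 at 6 ppm, a change of 0.65 ± 0.19 (adjusted p = 0.04). Among genes outside the list, Krt79, a keratin of hair follicle openings and sebaceous ducts in mouse skin, was 8.06 to 8.61 against 6.86 to 7.41, and rose by 1.15 ± 0.26 (adjusted p = 0.0103). Crabp2, a carrier of retinoic acid into the nucleus, rose by 1.25 ± 0.34 (adjusted p = 0.0275), and Cysrt1 by 0.89 ± 0.23 (adjusted p = 0.0202). The squamous list mean was 10.64 in animal 349 and 9.94 to 10.04 in the other 10 ppm animals, against 9.39 to 9.90 at 6 ppm. Without 349 the list's median change was 0.26. Lypd3 was called without 348 or 316, and the list had 1 rise without any of the other 6 animals.

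Basal cells carry the keratin pair Krt5 and Krt14. Krt14 signal was 13.75, 13.86, 13.57 and 13.83 at 10 ppm and 13.48, 13.33, 13.08 and 13.26 at 6 ppm, without overlap, and rose by 0.47 ± 0.10 (adjusted p = 0.00796). Krt5 was 12.20 to 12.43 at 10 ppm and 11.70 to 12.20 at 6 ppm, with the groups touching, and did not pass (0.35 ± 0.15, adjusted p = 0.164). In the basal list 2 of 23 measured members rose, Krt14 and the water and glycerol channel gene Aqp3 (0.22 ± 0.06, adjusted p = 0.029), and 0 fell; its median change was 0.08. Of 32 genes of claudins and junctions, Jup, which encodes plakoglobin (0.49 ± 0.14), and Pkp3, which encodes plakophilin-3 (0.50 ± 0.14), both of desmosomes, rose (adjusted p = 0.029 each) and 0 fell, with a list median of 0.04. Jup and Pkp3 were each lowest in animal 319, at 10.65 and 9.05.

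Cdkn2a encodes the p16 inhibitor of cyclin-dependent kinases 4 and 6 and, in another reading frame, the ARF protein that frees p53 from Mdm2. Its signal was 6.95, 8.26, 6.81 and 8.48 at 10 ppm and 5.55, 5.24, 4.96 and 5.55 at 6 ppm. Animals 346 and 349 were high within the 10 ppm group, every 10 ppm animal lay above every 6 ppm animal, and the change was 2.30 ± 0.24 (adjusted p = 6.77e-09), the smallest adjusted p of the genes named here. From 0 to 15 ppm the means at 13 weeks were 4.76, 4.80, 4.64, 5.32, 7.63 and 9.84, so the signal was low up to 6 ppm; 15 ppm minus 10 ppm, which shares the 10 ppm arrays, was 2.21 ± 0.24. The SD within 10 ppm was 0.87, against 0.29 at 6 ppm. Which of the p16 and ARF transcripts its probe set reads was not determined here.

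The list of p53 targets also holds the inhibitor genes Cdkn2a and Cdkn2b. Of its 24 measured members 7 rose, with Cdkn2a and Cdkn2b among them, and 1 fell, and the median change was 0.17. Ccng1, the gene of cyclin G1 and a direct p53 target, was 10.91, 11.33, 11.02 and 11.26 at 10 ppm and 10.50, 10.56, 10.61 and 10.44 at 6 ppm. The groups were apart, and the rise was 0.60 ± 0.10 (adjusted p = 0.000362). Cdkn1a, which encodes the p21 inhibitor of cyclin-dependent kinases, had signals of 10.67 to 11.10 at 10 ppm and 9.98 to 10.51 at 6 ppm and rose by 0.62 ± 0.14 (adjusted p = 0.00741); its second probe set rose by 1.35 ± 0.23. Phlda3, a repressor of Akt signalling, rose by 0.62 ± 0.13 (adjusted p = 0.00741). Cdkn2b, the p15 inhibitor gene beside Cdkn2a in the genome (0.44 ± 0.11, adjusted p = 0.0133), and the stress-response gene Sesn2 (0.34 ± 0.09, adjusted p = 0.0183) also rose. Sesn1, a related sestrin gene, fell by 0.40 (SE 0.12, adjusted p = 0.043), with its groups overlapping, while its second probe set changed by 0.14 ± 0.12. Without animal 349 the list had 2 rises and without 319 or 320 it had 3; Sesn1 was called without 348 or 316 and not without any of the other 6 animals. Of 38 measured repair genes 1 rose, Fancd2 of the crosslink repair pathway (0.42 ± 0.12, adjusted p = 0.0412), and 0 fell. Over all genes 2.1% rose and 1.91% fell.

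Of 55 measured genes of mitosis 28 rose and 0 fell, and the median change was 0.47. Groups did not overlap for 35 of them, all higher at 10 ppm, against 6.99% of all genes. Plk1, a kinase that drives entry into and passage through mitosis, was 8.23, 8.35, 8.14 and 8.41 at 10 ppm and 7.90, 7.88, 7.54 and 7.50 at 6 ppm. Each 10 ppm animal exceeded each 6 ppm animal, with animals 319 and 320 lowest, and the rise was 0.58 ± 0.10 (adjusted p = 0.000629). Cdk1, the kinase of the G2 to M transition, was 9.96, 10.27, 10.15 and 10.20 against 9.78, 9.57, 9.29 and 9.35, and rose by 0.65 ± 0.13 (adjusted p = 0.00356). Its partners Ccna2, cyclin A2 (1.07 ± 0.23, adjusted p = 0.00741), and Ccnb1, cyclin B1 (0.48 ± 0.13, adjusted p = 0.024), rose as well, and so did Cks2, a small subunit of the kinase (0.73 ± 0.16, adjusted p = 0.00772). Birc5, which encodes survivin of the chromosomal passenger complex, was 7.99, 8.14, 8.05 and 8.45 at 10 ppm and 7.51, 7.59, 7.33 and 7.23 at 6 ppm and rose by 0.74 ± 0.14 (adjusted p = 0.00278). The spindle gene Troap rose by 0.39 ± 0.08 (adjusted p = 0.00342) and the cytokinesis kinesin gene Kif20a by 0.68 ± 0.17 (adjusted p = 0.0147). Mki67, the gene of the Ki-67 proliferation antigen, was 8.85 to 9.30 at 10 ppm and 8.22 to 8.46 at 6 ppm but did not pass (0.64 ± 0.23, adjusted p = 0.0942).

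The mean signal of the mitosis list was 8.12 to 8.41 in the 10 ppm animals and 7.68 to 7.99 in the 6 ppm animals, with 319 and 320 lowest. Without 1 of the animals 349, 346, 320 and 319, the list had 5, 6, 8 and 9 members that rose, and without 319 and 320 it had 0, while the list's median change stayed at 0.34 to 0.55 in the fits that left out arrays or scaled them again. In the sequences before the start, the CHR letters were present for 10 of the 25 mitotic genes that rose and have a sequence (40%), against 10.9% of all 11734 genes, and the CCAAT letters for 19 of the 25 (76%), against 35.1%. Over all 47 mitosis genes with a sequence the shares were 46.8% and 76.6%. In the sequences printed above, Cdk1 and Cks2 hold both, while Plk1 and Ccnb1 hold CCAAT and no CHR letters in this window.

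Of 46 measured genes of S phase and replication, 13 rose and 0 fell, with a median change of 0.29. Between the groups 23 members were apart, all of them higher at 10 ppm, against 6.99% of all genes. Ccne1, cyclin E1 of the G1 to S transition, was 7.43, 7.69, 7.34 and 7.54 at 10 ppm and 6.88, 6.90, 6.51 and 6.66 at 6 ppm. No 6 ppm animal reached the 10 ppm range, and the rise was 0.76 ± 0.14 (adjusted p = 0.00193). Tk1, a thymidine kinase, rose by 0.58 ± 0.12 (adjusted p = 0.00741), Pcna, the sliding clamp of DNA polymerase, by 0.31 ± 0.07 (adjusted p = 0.00935), and E2f8, a repressor of the E2F family, by 0.77 ± 0.19 (adjusted p = 0.014). Mcm5, a subunit of the replicative helicase whose sequence with E2F letters is shown above, rose by 0.55 ± 0.15 (adjusted p = 0.0265). The E2F letters were present before 3 of 11 S phase genes that rose (27.3%) and before 6.49% of all genes. Among all genes that rose the share was 6.54%, and among those that fell 8.04%. For the whole S phase list it was not counted. Uhrf1, which guides the copying of DNA methylation, rose by 0.79 ± 0.21 (adjusted p = 0.0206). Leaving out 349, 346, 319 or 320 left 1, 3, 5 and 5 members that rose, and leaving out 319 and 320 together left 0. Sapcd2 (1.04 ± 0.18, adjusted p = 0.000672) and Shcbp1 (0.91 ± 0.20, adjusted p = 0.00741), which act in spindle orientation and at the midbody of dividing cells, are in neither list and rose too.

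Ribosome biogenesis supplies growing cells with ribosomes. Of 53 measured genes of this list 9 rose and 0 fell, and the median change was 0.22. Non-overlapping groups were seen for 28 members, all higher at 10 ppm, against 6.99% of all genes. After centring 28 members rose, and after cyclic loess 25, against 978 and 425 of all 14217 genes. Nop58, a core protein of the box C/D particles that methylate ribosomal RNA, was 11.44, 11.64, 11.47 and 11.48 at 10 ppm and 11.10, 11.25, 10.95 and 10.95 at 6 ppm. The groups were apart by a small margin and the rise was 0.45 ± 0.09 (adjusted p = 0.00309). Its partner Nop56 rose by 0.52 ± 0.11 (adjusted p = 0.00741), Ncl, nucleolin, by 0.34 ± 0.08 (adjusted p = 0.0136), and the nucleolar helicase gene Ddx21 by 0.42 ± 0.11 (adjusted p = 0.0202). Without 346, 349, 319 or 320 the list had 1, 2, 3 and 4 members that rose, and without 348 it had 14; without 319 and 320 together it had 0. Trmt6, a subunit of a transfer RNA methyltransferase, rose by 0.79 ± 0.19 (adjusted p = 0.0141), but its other probe sets changed by 0.23 ± 0.09 and 0.49 ± 0.15.

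**Figure D2:**
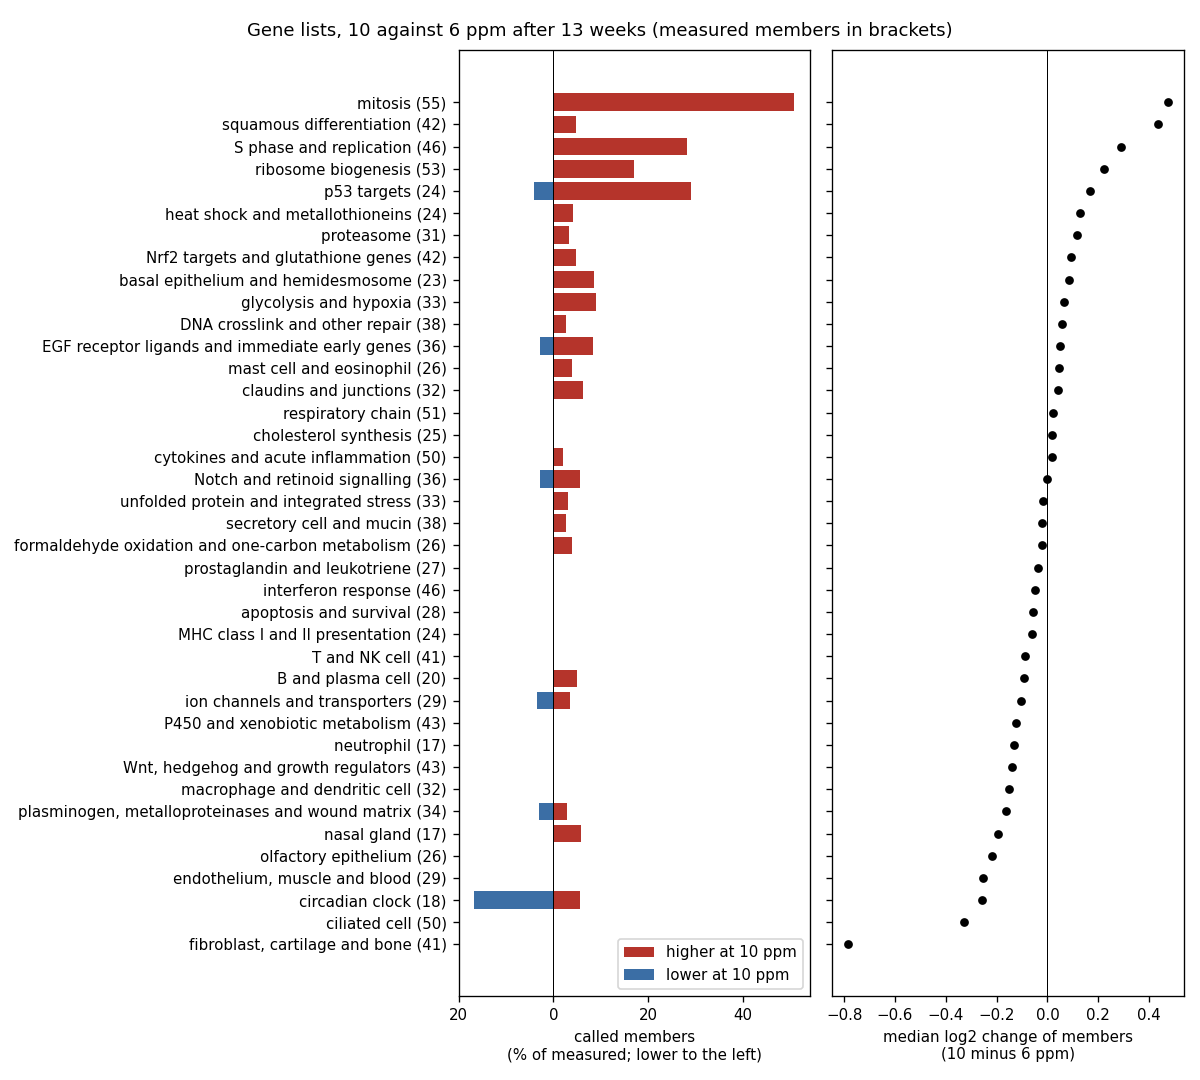
Called members of 39 gene lists as a percentage of the measured members (left; higher at 10 ppm to the right of 0, lower to the left) and the median log2 change of all measured members, 10 minus 6 ppm (right). In this fit mitosis has the largest share of rises (28 of 55), the clock list the most falls (3 of 18), and the fibroblast list the lowest median (-0.78) with 0 calls.

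The receptor for epidermal growth factor (EGF) relays repair signals in epithelia, and its ligands Areg (amphiregulin) and Ereg (epiregulin) rose. Areg signal was 10.33, 10.64, 9.38 and 10.07 at 10 ppm and 9.30, 9.07, 8.28 and 8.13 at 6 ppm, with the lowest 10 ppm animal just above the highest 6 ppm animal; the rise was 1.41 ± 0.32 (2.66-fold, adjusted p = 0.00935). From 0 to 15 ppm its means were 5.22, 5.44, 5.92, 8.70, 10.10 and 10.65. Ereg rose by 0.88 ± 0.24 (adjusted p = 0.0268) with overlapping groups. Fosl1, a subunit of the transcription factor AP-1, was 9.01, 9.41, 8.68 and 8.82 at 10 ppm and 8.49, 8.22, 7.53 and 7.71 at 6 ppm, without overlap, and rose by 0.99 ± 0.21 (adjusted p = 0.00653). Spry1, a feedback inhibitor of receptor tyrosine kinase signalling, fell, with 8.99 to 9.48 at 10 ppm against 9.80 to 9.90 at 6 ppm (-0.53 ± 0.11, adjusted p = 0.00499). These were the calls among 36 measured EGF receptor ligand and immediate early genes, 3 rises and 1 fall, and the list's median change was 0.05. Without 346, 349 or 320 the list had 1 rise, and without 348 it had 5; Spry1 was not called without 349. Without 319 and 320 together the list had 0 calls and a median of -0.08, and Areg and Fosl1 did not pass (0.92, adjusted p = 0.236, and 0.62, adjusted p = 0.214).

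Fst encodes follistatin, a secreted antagonist of activins. Its signal was 7.72, 8.65, 7.52 and 8.06 at 10 ppm and 7.28, 6.25, 6.30 and 6.39 at 6 ppm; animal 316 stood above the other 6 ppm animals and still below each 10 ppm animal. The rise was 1.43 ± 0.25 (2.70-fold, adjusted p = 0.000672), and its second probe set rose by 1.63 ± 0.25. Without animals 319 and 320 together, Fst was not called. In the list of plasminogen, metalloproteinase and wound matrix genes, Fst alone of 34 measured members rose, and Tgfbi, a matrix protein induced by transforming growth factor beta, fell with overlapping groups (-0.46 ± 0.13, adjusted p = 0.0389). C9h6orf141 rose by 1.26 ± 0.20 (adjusted p = 0.000223), from a probe set at 8.39 to 9.40 in the 10 ppm animals and 7.41 to 8.04 in the 6 ppm animals. The signals of Ppbp, a chemokine of platelets (0.99 ± 0.20, adjusted p = 0.00533), and Gip, an incretin hormone of the gut (0.94 ± 0.15, adjusted p = 0.000328), were low at 6 ppm, where the means were 5.31 and 5.33.

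Metabolic and stress genes had few calls on the deposited scale, on which 2.1% of all genes rose and 1.91% fell. In the glycolysis and hypoxia list 3 of 33 rose and 0 fell: Gapdh (0.39 ± 0.08, adjusted p = 0.00468), Pgam1 (0.24 ± 0.06, adjusted p = 0.0162) and Pgk1 (0.25 ± 0.08, adjusted p = 0.0485), each an enzyme of glycolysis. Gapdh was 13.30, 13.42, 13.44 and 13.52 at 10 ppm and 13.22, 13.21, 12.77 and 12.94 at 6 ppm; it is read by the array's control probe sets, and its 3′ minus 5′ difference was 0.03 to 0.14 at 10 ppm and 0.07 to 0.45 at 6 ppm, a measure whose part in this result was not tested. Hspd1, the mitochondrial chaperonin, rose by 0.32 ± 0.07 (adjusted p = 0.00581), as the 1 call among 24 heat shock and metallothionein genes. Of these 24 genes 10 had an unadjusted p under 0.05, all higher at 10 ppm, against 22.5% of all genes. After centring 9 of the 24 rose, and after cyclic loess 5. Of 42 Nrf2 target and glutathione genes, Gss, glutathione synthetase (0.36 ± 0.08, adjusted p = 0.0113), and Cbr1, carbonyl reductase 1 (0.54 ± 0.14, adjusted p = 0.0174), rose and 0 fell. Hmox1, the haem-degrading enzyme of the same response, was 11.34 to 11.91 at 10 ppm and 10.82 to 11.76 at 6 ppm and did not pass (0.33 ± 0.22, adjusted p = 0.374). In the list of formaldehyde oxidation and one-carbon metabolism, Shmt2, a mitochondrial serine hydroxymethyltransferase, rose by 0.45 ± 0.13 (adjusted p = 0.0357), as 1 of 26 genes, and the list's median was -0.02. Psmd11 of the proteasome lid was the 1 call among 31 proteasome genes (0.43 ± 0.09, adjusted p = 0.00741). Its second probe set changed by 0.08 ± 0.06. Of the 31 changes 30 were above 0, and 14 members rose after centring and 6 after cyclic loess. Over all 14217 genes, 978 rose after centring and 425 after cyclic loess. Among 43 measured genes of P450 and xenobiotic metabolism limma called 0, with 4 at an unadjusted p under 0.05. Ces1d, a carboxylesterase, changed by -0.30 ± 0.12 without passing (adjusted p = 0.126).

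Retinoid and Notch signalling genes moved both ways. Beside Crabp2, Nrarp, a feedback inhibitor of Notch, rose by 0.45 ± 0.13 (adjusted p = 0.0445), and Cyp26b1, which degrades retinoic acid, fell, at 8.03 to 8.59 against 8.57 to 9.51 (-0.80 ± 0.19, adjusted p = 0.0104), while its second probe set changed by -0.05 ± 0.09. These were 2 rises and 1 fall of 36 genes measured. In the secretory and mucin list 1 of 38 rose, the keratin gene Krt20 (0.55 ± 0.16, adjusted p = 0.035), from a 6 ppm mean of 5.72. Over all genes 2.1% rose. Of 29 ion channel and transporter genes, Aqp3 rose and Ano1, a calcium-activated chloride channel of secretory cells, fell. Ano1 was 10.18, 9.79, 10.11 and 9.57 at 10 ppm and 10.64, 10.47, 10.19 and 10.49 at 6 ppm. The highest 10 ppm animal lay just below the lowest 6 ppm animal, and the fall was 0.54 (log2 change -0.54 ± 0.14, adjusted p = 0.0217); from 0 to 15 ppm the means were 11.03, 10.94, 10.75, 10.45, 9.91 and 9.40.

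**Figure D3:**
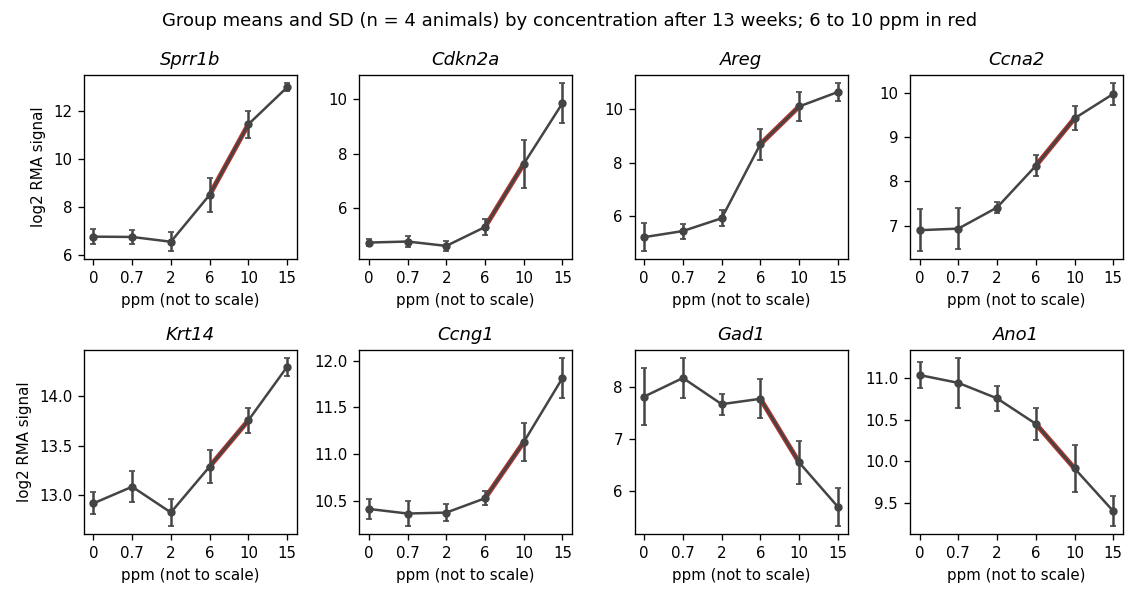
Mean log2 RMA signal ± SD of 4 animals (vertical axes) at 6 concentrations rising from 0 to 15 ppm after 13 weeks (horizontal axes, spaced evenly) for 8 genes, with the step from 6 to 10 ppm in red. Sprr1b and Cdkn2a were near their 0 ppm level up to 2 ppm, and Cdkn2a stayed low at 6 ppm (5.32).

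Gad1, a glutamate decarboxylase that makes the transmitter GABA, had the largest fall. Its signal was 7.17, 6.41, 6.40 and 6.23 at 10 ppm and 7.88, 7.80, 7.26 and 8.17 at 6 ppm, with animal 341 close to the 6 ppm range. The change was -1.22 ± 0.29 (adjusted p = 0.0113), and the second probe set, at low signal, changed by 0.07 ± 0.11. Mean signal from 0 to 15 ppm was 7.82, 8.18, 7.67, 7.78, 6.56 and 5.70. Spon1, the matrix protein F-spondin, was 7.12 to 7.83 at 10 ppm and 8.06 to 8.93 at 6 ppm (-0.93 ± 0.21, adjusted p = 0.0103). The remaining falls among the 15 largest with non-overlapping groups were of diverse genes and between -0.98 and -0.64. They were Pdzrn3 and Rnf180 (ubiquitin ligases), Fyn (a Src family kinase), Gpc3 (a glypican), Rcan2 (a calcineurin regulator), Pcdhb9 (a protocadherin), Myrip (a partner of Rab27 and myosin), Ripor2, Arhgap6, Bhlhe41, Prkcb (a protein kinase C), Mpped2 (a metallophosphoesterase) and Dach1 (a transcription factor). Second probe sets of Myrip and Ripor2 changed by 0.05 ± 0.11 and 0.12 ± 0.10, and that of Gpc3, at a mean signal of 4.02, by 0.07 ± 0.08. The other probe sets of Prkcb changed by -0.13 ± 0.10 and -0.09 ± 0.07 at low signal, and those of Fyn (-0.46 ± 0.21) and Rcan2 (-0.47 ± 0.19) did not pass, so in these 6 genes the call rests on 1 probe set. Arhgap6 was at low signal in both groups.

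Genes of the circadian clock fell in 3 cases and rose in 1, of 18 measured, with a median change of -0.26 and 16 changes below 0. Without overlap 6 members were lower and 1 higher, against 6.27% and 6.99% of all genes. Nr1d2, the repressor REV-ERB beta, was 10.75, 10.43, 10.83 and 10.41 at 10 ppm and 10.98, 11.01, 11.24 and 11.24 at 6 ppm, all 10 ppm values being lower, and fell (-0.51 ± 0.12, adjusted p = 0.0137), with the same direction in its second probe set (-0.54 ± 0.13). Its relative Nr1d1, REV-ERB alpha, fell (-0.48 ± 0.14, adjusted p = 0.0391), as did Bhlhe41, the clock repressor DEC2 (-0.75 ± 0.19, adjusted p = 0.0188). Clock, the activator that pairs with Bmal1, rose by 0.29 ± 0.08 (adjusted p = 0.0402), but another of its probe sets changed by -0.20 ± 0.10. The labels used here give no hour of sacrifice, so time of day and concentration cannot be told apart. Without 346, 349, 319 or 320 the list had 0 calls; without 341, 316 or 317 Clock was not called.

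Ciliated cell genes were lower on balance without a call. Of 50 measured, limma called 0, with 14 at an unadjusted p under 0.05, against 22.5% of all genes. Below 0 were 48 changes, with a list median of -0.33. Without overlap 9 members were lower and 1 higher, against 6.27% and 6.99% of all genes. Foxj1, the master factor of motile cilia, was 10.12 to 10.46 at 10 ppm and 10.20 to 10.75 at 6 ppm (-0.24 ± 0.17, adjusted p = 0.392). The member with the smallest p, the ciliary adenylate kinase gene Ak7, was 8.65 to 9.39 against 9.20 to 9.81 (-0.62 ± 0.22, adjusted p = 0.0858). At 15 ppm against 0 ppm, in other animals of 13 weeks, 42 of the 50 fell and 1 rose.

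The fibroblast and olfactory lists, of cells other than the respiratory epithelium, held no call. The fibroblast, cartilage and bone list showed a median difference of -0.78, and limma called 0 of its 41 members. At an unadjusted p under 0.05 it had 16, against 22.5% of all genes. Its list mean was 7.69 to 8.47 at 10 ppm and 8.17 to 9.14 at 6 ppm, and Col1a2, a chain of type I collagen, was 13.43, 12.89, 12.33 and 11.90 at 10 ppm against 13.88, 13.63, 13.32 and 13.69 at 6 ppm (-0.99 ± 0.34, adjusted p = 0.0762). The olfactory list had a median of -0.22 with 0 of 26 called by limma and 0 at an unadjusted p under 0.05, and its list mean spanned 8.03 to 9.48 at 10 ppm and 8.35 to 10.01 at 6 ppm. With both list means as covariates 920 genes were called, 299 higher and 621 lower; 223 of the 299 rises and 218 of the 272 falls were among them, and the mitosis list kept 25 rises. What share of the falls goes with the lower stromal signal was not tested beyond this fit.

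**Figure D4:**
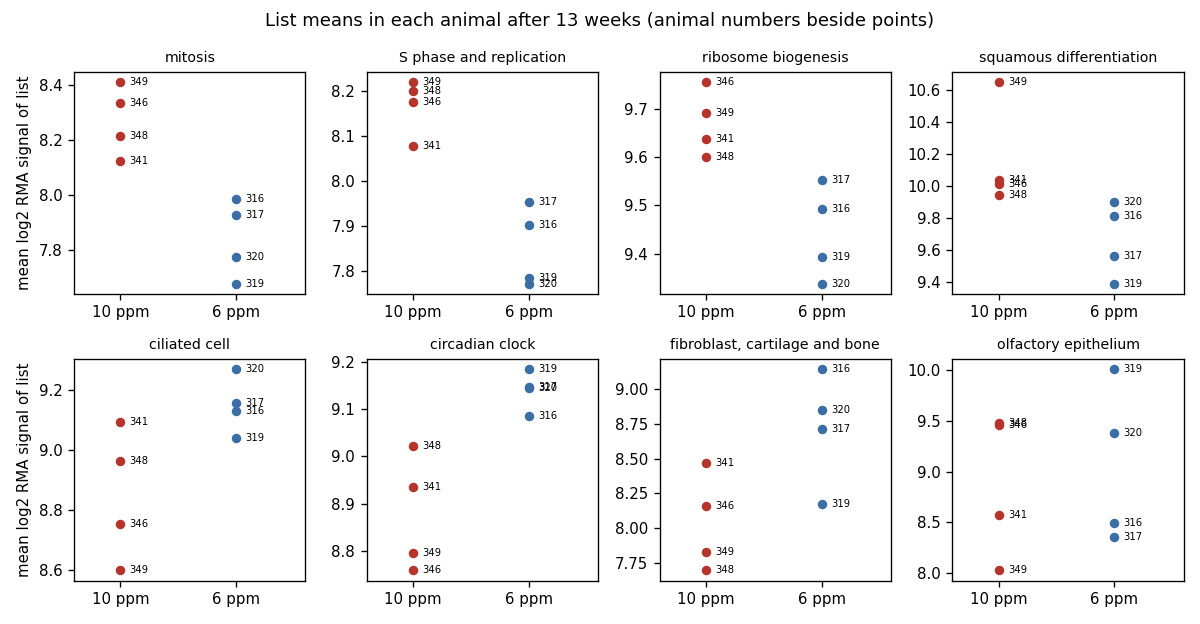
Mean log2 RMA signal of 8 gene lists (vertical axes) in each animal after 13 weeks, 10 ppm left and 6 ppm right, with animal numbers beside the points. The mitosis, S phase, ribosome biogenesis, squamous and clock list means are apart between the groups, whereas the ciliated, fibroblast and olfactory lists overlap.

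Few immune genes were called in this step, in which 2.1% of all genes rose and 1.91% fell. In each of 5 lists, limma called 0 members, and the median changes were -0.15 for 32 macrophage and dendritic cell genes, -0.13 for 17 neutrophil genes, -0.09 for 41 T and NK cell genes, -0.05 for 46 interferon response genes and -0.06 for 24 genes of MHC presentation. At an unadjusted p under 0.05 there were 3, 2, 6, 0 and 0 members in the same order of lists, against 22.5% of all genes. The list of cytokines and acute inflammation had 1 rise among 50 measured genes and a median change of 0.02. In that list 14 members had an unadjusted p under 0.05, 9 higher and 5 lower at 10 ppm, which is near the 22.5% of all genes. Csf1r, the macrophage growth factor receptor, was 7.50 to 7.61 at 10 ppm and 7.78 to 8.09 at 6 ppm, apart but not past the threshold (-0.38 ± 0.17, adjusted p = 0.164). The chemokine genes Cxcl10 (-0.10 ± 0.54, adjusted p = 0.931) and Ccl2 (-0.55 ± 0.47, adjusted p = 0.494) overlapped between the groups, with their highest 6 ppm signals, 8.11 and 7.06, in animal 316. Single members of other lists rose from weak signal or by small amounts: Il11, a cytokine of stroma and epithelium (0.28 ± 0.08, adjusted p = 0.0334), Tpsb2, a mast cell tryptase (0.38 ± 0.11, adjusted p = 0.0288), Cxcr5, a chemokine receptor of B cells (0.35 ± 0.10, adjusted p = 0.0418), and Oprpn, the precursor of the peptide opiorphin in humans (0.30 ± 0.07, adjusted p = 0.0113). Il11 and Oprpn were under 6 in both groups.

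The same step of concentration was measured in other animals at 5 days and at 4 weeks, and none of those arrays enters the 13 week groups. At 5 days 146 genes were called, 131 higher and 15 lower at 10 ppm (1.03%; 0.921% and 0.106%), and at 4 weeks 82, all higher (0.577%); fits to the 8 arrays of each step alone called 0, with 1569 and 959 genes at an unadjusted p under 0.05. The count at 5 days was 0 and 351 without the 10 ppm animals 329 and 324, 14, 28 and 376 without the 6 ppm animals 295, 299 and 298, and 3 with the beta-actin 3′ minus 5′ difference as a covariate. At 4 weeks it was 22 and 23 without the 10 ppm animals 336 and 333, and 19 and 50 without the 6 ppm animals 303 and 309. Of the 299 genes that rose at 13 weeks, 232 (77.6%) had a change above 0 at 5 days and 254 (85.0%) at 4 weeks, against 56.65% and 54.03% of all genes. Of the 272 that fell, 166 (61.0%) were below 0 at 5 days and 194 (71.3%) at 4 weeks, against 43.35% and 45.97% of all genes, and 0 of them were called lower at either time. The mitosis list rose in 29 members at 5 days (median 0.53) and in 1 member at 4 weeks (median 0.38), beside 28 members at 13 weeks (median 0.47). Of 32 macrophage and dendritic cell genes 0 rose at 5 days (median 0.48) and 7 at 4 weeks (median 0.39), and of 17 neutrophil genes 0 rose at 5 days (median 0.37) and 4 at 4 weeks (median 0.51).

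Tests of the difference between steps called few genes. Against 5 days, 6 genes differed (0.0422%; 3 higher and 3 lower, 0.0211% each; 2243 at an unadjusted p under 0.05), and against 4 weeks 10 (0.0703%; 1499 at an unadjusted p under 0.05), 1 higher and 9 lower (0.00703% and 0.0633%). Leaving out 1 array gave 1 to 19 and 3 to 22 genes in these tests. Cdkn2a was called in both: its step was 2.30 at 13 weeks, 0.33 ± 0.24 at 4 weeks and -0.02 ± 0.24 at 5 days, and the differences were 1.98 ± 0.34 (adjusted p = 0.00311) against 4 weeks and 2.32 ± 0.34 (adjusted p = 0.000159) against 5 days. At the earlier times its means were 5.48 and 5.15 for 10 and 6 ppm at 4 weeks and 4.68 and 4.70 at 5 days, all low signals. Sprr1b had a step of 1.90 at 4 weeks and 0.46 at 5 days, and its difference from 13 weeks did not pass (1.03 ± 0.57, adjusted p = 0.55, and 2.47 ± 0.57, adjusted p = 0.0898).

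The other differences from 5 days lay near the threshold, at an adjusted p = 0.0497 for each of the 5 genes. Ddx6, a helicase of messenger RNA decay (1.38 ± 0.29), and Setsip (0.62 ± 0.13) had the higher step at 13 weeks. Plekha5 (-0.58 ± 0.12), the kinase gene Mknk1 (-0.53 ± 0.11) and the adenosine kinase gene Adk (-0.52 ± 0.11) had the lower. Those 3 fell at 13 weeks, with changes of -0.38 to -0.27, and Setsip rose by 0.44 ± 0.09 (adjusted p = 0.00499), whereas Ddx6 did not pass in this step. Against 4 weeks the lower steps were led by Mmp3, the matrix metalloproteinase stromelysin-1 (-3.53 ± 0.55, adjusted p = 0.00057), whose means at 4 weeks were 8.12 at 10 ppm and 4.20 at 6 ppm and which at 13 weeks was 4.18 to 5.86 and 4.18 to 4.76. The myeloid genes Fcnb, ficolin B (-2.38 ± 0.43, adjusted p = 0.00363), Igsf6 (-1.67 ± 0.35, adjusted p = 0.0264) and Lyz2, lysozyme (-1.51 ± 0.32, adjusted p = 0.0372), followed, together with Glipr1 (-1.39 ± 0.27, adjusted p = 0.00993). Lyz2 averaged 13.2 at 10 ppm and 12.1 at 6 ppm after 4 weeks and was 11.57 to 12.43 and 12.06 to 12.92 after 13 weeks. In fits to the arrays of the groups compared alone, 0 differences were called in either test, with 2310 and 1198 genes at an unadjusted p under 0.05.

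**Figure D5:**
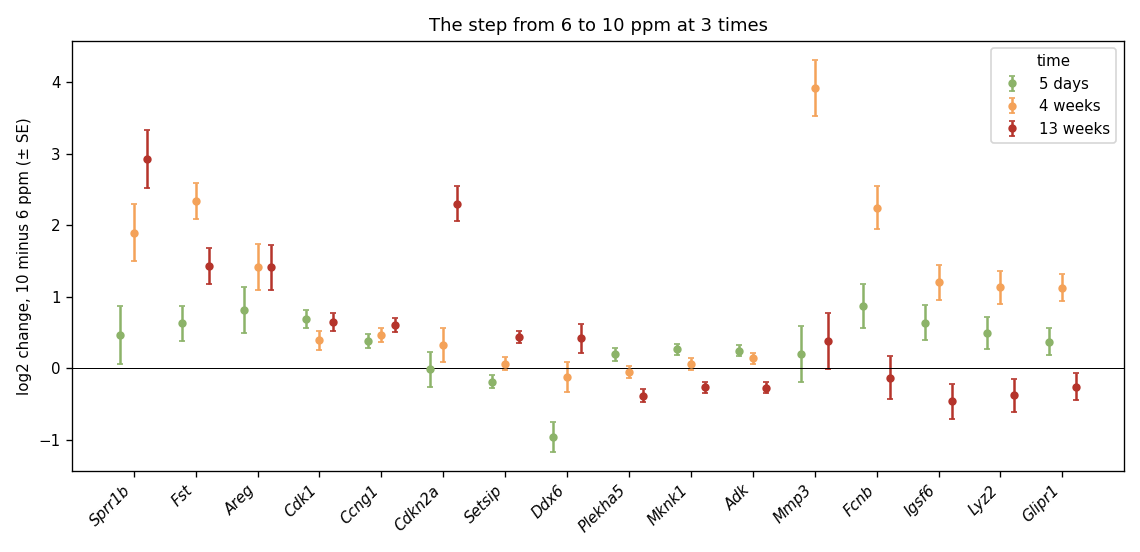
Log2 change ± SE, 10 minus 6 ppm, of 16 genes (horizontal axis) at 5 days, 4 weeks and 13 weeks, n = 4 animals per group and time. Cdkn2a stands out at 13 weeks (2.30) and Mmp3 at 4 weeks (3.92).

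The genes of the step were also set against the ends of the dose range at 13 weeks, 15 ppm and 0 ppm, which share no array with it. That comparison called 6279 genes (44.2%; 23.5% higher and 20.6% lower). Of the 299 genes that were higher at 10 ppm than at 6 ppm, 237 (79.3%) were also higher at 15 ppm than at 0 ppm and 4 were lower; of the 272 that fell, 212 (77.9%) were lower and 3 higher. Sprr1b differed by 6.20, Areg by 5.43 and Cdkn2a by 5.08, each against a 0 ppm signal of 6.77 or less. Exceptions among the named genes were Cxcr5, Tpsb2, Il11, Oprpn, Adk, Pdzrn3, Fyn, Gpc3, Ripor2 and Mpped2, which were called at 10 against 6 ppm and not at 15 against 0 ppm. The p53 list had 18 of 24 members higher at 15 ppm, the squamous list 33 of 42, the S phase list 45 of 46 and the ribosome biogenesis list 51 of 53.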

How the data were processed

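RNA of nasal epithelial cells was measured on 68 arrays, 1 per animal. Per the submitters' processing notes, GCOS 1.0 and RMA were used, and the deposited values, which span 3.17 to 15.4, were taken as RMA log2 signals. No transformation was added. Of 31099 probe sets, 20832 name 1 gene symbol in the platform annotation, 436 name several and 9831 none; where several probe sets share a symbol, the brightest on average stood for it, which left 14217 genes. Groups came from the dose and time in the labels. limma 3.58.1 in R 4.3.3 fitted 17 group means, with 51 residual degrees of freedom, and tested 10 minus 6 ppm at 13 weeks, the same step at 5 days and 4 weeks, the differences between steps, and 15 minus 0 ppm, with Benjamini-Hochberg adjustment over all genes. The fit was tested on simulated data. The number of arrays limits the precision.

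Named genes are the 15 largest rises and the 15 largest falls among called genes with non-overlapping groups, from each list at most 4 called genes in order of adjusted p (at most 2 genes where none was called), up to 5 differences of each sign in each test between steps, and Sprr1b, Areg, Cdkn1a, Mki67, Foxj1, Hmox1, Cxcl10, Ccl2 and Krt5. Cks2, Ccnb1, Mcm5, Cdkn2b, Sesn1, Uhrf1 and Kif20a were named after their values were seen; the first 3 have a sequence window that no annotated transcript covers. The members and lists were chosen with earlier results of these data known. Alternatives covered scaling, array weights, variance moderation, probe set choice, dim genes, covariates, fewer groups and each left-out array. Promoter sequences matched 11734 genes. GCOS settings beyond the version are not given in the sources used here.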

Additional observations from a re-analysis of the deposited data

Results flagged for a closer look

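Single animals stood apart in 17 of 286 groups of 4 values tested by Dixon's test, and chance gives about 1 in 20. Among the 10 ppm animals, 349 was lowest for Gpc3 (6.97) and highest for Cxcr5 (8.98), Il11 (5.70), the RNA integrity number (8.6), the squamous list mean (10.64) and the glycolysis list mean (9.66). Animal 346 was highest for Nop56 (12.19), and 341 was lowest for Ddx21 (11.08) and Uhrf1 (7.79). Among the 6 ppm animals, 316 was highest for Fst (7.28), Cxcl10 (8.11), Igsf6 (6.48), Glipr1 (8.29) and the nasal gland list mean (8.09), and 319 was lowest for Jup (10.65), Pkp3 (9.05) and Mki67 (8.22).

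By limma's test of the difference, the step between the concentrations differed with time for 11 of the named genes. A call in these tests was itself a rule for naming genes, so the count is no added support. Over all 14217 genes the tests called 6 against 5 days and 10 against 4 weeks, and 0 in fits to the groups compared alone. Cdkn2a had a larger step at 13 weeks than at 5 days (by 2.32) and at 4 weeks (by 1.98). Against 5 days the differences were 1.38 for Ddx6, 0.62 for Setsip, -0.58 for Plekha5, -0.53 for Mknk1 and -0.52 for Adk. Against 4 weeks they were -3.53 for Mmp3, -2.38 for Fcnb, -1.67 for Igsf6, -1.51 for Lyz2 and -1.39 for Glipr1.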

How the results depend on the processing

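The 571 genes called at 13 weeks became 1102 after median centring, 1062 with array weights, 83 with a 1.5-fold minimum and 0 in the fit to the 8 arrays. In alternatives chosen after seeing the data they became 1069, 1117 and 920 with the olfactory, the fibroblast and both list means as covariates and 19 without animals 319 and 320. The range with 1 array left out was 40 to 792. At 5 days the 146 genes became 81 after centring, 417 with array weights, 42 with the RNA integrity number and 3 with the beta-actin difference as a covariate, 52 with a 1.5-fold minimum, 0 with the 8 arrays and 17 with the arrays of that time, and ranged over 0 to 376 with 1 array left out. At 4 weeks the 82 genes became 50 after centring, 158 with array weights and 0 with the 8 arrays, with a range of 19 to 116. The 6 differences from 5 days became 335 after centring, 192 with array weights, 2 with trended moderation, 1 with the RNA integrity number, 2 with the beta-actin difference, 3 with a 1.5-fold minimum, 10 over all probe sets, 0 with the groups compared, 3 with the times compared, 43 and 26 with the olfactory and both list means and 2 without 319 and 320 (1 to 19 with 1 array left out). The 10 differences from 4 weeks became 0 with the groups compared and 26, 4 and 4 with the olfactory, fibroblast and both list means (3 to 22). The 6279 genes of 15 against 0 ppm became 2529 with a 1.5-fold minimum. The causes were not tested, apart from the fewer samples or genes that a setting itself imposes. Of the 85 genes named that were called, 21 to 81 were still called with 1 array left out, 5 without 319 and 320, 0 in the fit to the 8 arrays, 43 with a 1.5-fold minimum and 71 to 85 under the other settings that were counted gene by gene, apart from the brightness filter, which dropped 3 of them and kept 82; 0 changed sign. The fit to every probe set was not counted by gene. Over all 571 calls, 9 changed sign when the probe sets of a gene were averaged. No paired analysis was possible because each animal has its own number and no label pairs animals across groups. Genes with a mean signal under 6 lie near background, and their changes are limited by it.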

Other observations

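Some lists not described above held no call. limma called 0 of 51 measured genes of the respiratory chain, 25 of cholesterol synthesis, 28 of apoptosis and survival and 27 of prostaglandin and leukotriene metabolism. At an unadjusted p under 0.05 there were 4, 3, 2 and 5 of them, against 22.5% of all genes. Their median changes were 0.02, 0.02, -0.06 and -0.04. Of 43 genes of Wnt, hedgehog and growth regulators limma called 0, with a median of -0.14 and 14 at an unadjusted p under 0.05, 4 higher and 10 lower at 10 ppm. The list of endothelium, muscle and blood had a median of -0.25 and 0 of 29 called by limma, with 6 at an unadjusted p under 0.05.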
